A study of Mus musculus with 12 samples.

Results

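Elane, Mpo, Prtn3, Ctsg and Ms4a3 are 5 of the 24346 gene symbols measured in tumor-sorted myeloid-derived suppressor cells (MDSCs), and they were selected by symbol as genes of the primary granule stage, on measured values of these same libraries. RNA was sequenced from 12 libraries, 2 for each of 6 groups: M-MDSCs (CD11b+, Ly-6C high, Ly-6G-) or PMN-MDSCs (CD11b+, Ly-6C intermediate, Ly-6G+), from mice given vehicle, MS275 or CXD101. All mice were WT females of the C57BL/6J strain, 6 to 8 weeks old, and all carried orthotopic liver tumors grown from Hepa 1-6, a mouse hepatoma cell line. MS275 (MS-275, entinostat) and CXD101 are inhibitors of histone deacetylases (HDACs) 1 to 3. Each was injected intraperitoneally at 5 mg/kg daily for 10 days from day 10 after tumor cell injection, and tumors were taken on day 21 from mice in which MDSCs exceeded 20% in blood. The study calls its MDSC expression libraries biological replicates, and no label names the animal behind a library.

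Primary (azurophil) granules are the first granules that a myeloid precursor makes, at the promyelocyte stage. Their genes are transcribed in granulocyte-monocyte progenitors and promyelocytes and are shut down as neutrophils mature, while the proteins stay stored in the cell. Elane (neutrophil elastase), Prtn3 (proteinase 3) and Ctsg (cathepsin G) encode serine proteases of these granules. Mpo encodes myeloperoxidase, the heme enzyme that makes hypochlorous acid. Ms4a3 encodes a membrane-spanning protein and is neither a protease nor a peroxidase; it marks granulocyte-monocyte progenitors, and it is kept here as a gene of the same stage.

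In the GRCm38 annotation (GENCODE), Elane (ENSMUSG00000020125) lies on the plus strand of chromosome 10 at chr10:79886247-79888215 with 5 exons. Prtn3 (ENSMUSG00000057729) ends 3072 bp upstream of it on the same strand, at chr10:79874476-79883174. Mpo (ENSMUSG00000009350) has 14 exons at chr11:87793581-87804413 on the plus strand. Ctsg (ENSMUSG00000040314) has 5 exons at chr14:56099881-56102574 on the minus strand, within a cluster of mast cell protease and granzyme genes. Ms4a3 (ENSMUSG00000024681) has 7 exons at chr19:11629496-11640851 on the minus strand, within the Ms4a gene family. An antisense gene overlaps Mpo, and the protein-coding gene Plppr3 overlaps Prtn3 on the other strand. The library kit marks strand, but whether strand was used in counting is not given in the sources used here.

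The 5 promoters were searched for short binding motifs of factors known to drive these genes, and the matching stretches are shown because the 5 genes are described as a group. The windows run from 250 bases before to 50 bases after the RefSeq start (GRCm38.p6). The PU box letters GAGGAA, bound by PU.1, were found on either strand in 5 of 5 windows and in 28.3% of all 32851 promoter windows. The MYB letters AACGG were found in 2 of 5 windows and in 17.4% of all windows. Capitals mark the motif, each stretch is written 5′ to 3′ on the strand of the gene, and the 2 MYB stretches come from the neighbors Prtn3 and Elane.
Prtn3 PU box, chr10:79879560-79879589: ccaaactggaagGAGGAAgtgggacccaca
Elane PU box, chr10:79886215-79886244: tcgtgtcccaggGAGGAAgtagggctgtgg
Mpo PU boxes, chr11:87793534-87793577: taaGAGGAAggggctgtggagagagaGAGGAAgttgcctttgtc
Ctsg PU box, chr14:56102773-56102802: ctcccagaaggaGAGGAAgaaaaggaagta
Ms4a3 PU box, chr19:11640802-11640828: actggacttgctGAGGAAttgcacaaa
Prtn3 MYB, chr10:79879600-79879628: tagccactgttcAACGGctcccggcagag
Elane MYB, chr10:79886250-79886278: atggggcaatacAACGGcctctggttcca

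The PU boxes of Prtn3 and Elane began 95 and 85 bases before the RefSeq start, and their MYB letters began 55 and 50 bases before it. In Mpo and Ctsg the PU boxes lay farther from the RefSeq start, at 247 and 224 bases for Mpo and 216 bases for Ctsg. These distances depend on the start used. By the GENCODE spans given above, the Mpo stretch ends just before the gene. Both Prtn3 stretches and the Elane MYB stretch lie inside their genes by these spans. In Ms4a3 the PU box lay inside the transcribed part, directly before the letters TTGCACAA, which match the C/EBP motif TTGCNNAA. The C/EBP motif was found in 1 of 5 windows and in 10.8% of all windows, and the RUNX motif TGTGGT, present in Ctsg, in 1 of 5 and in 16.8%. A match is a description of the letters only.

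Expression was deposited as FPKM, a read count divided by transcript length and by the mapped reads of its library, which can be compared between genes. FPKM summed to 564078 to 596407 per M-MDSC library and to 656932 to 860841 per PMN-MDSC library. From the steps between low FPKM values, the depth was estimated at 6980000 to 10400000 reads per library, and a primary granule gene rested on about 203 to 29164 reads. The log2 ratio of the 2 libraries of a group exceeded its counting SD, 0.013 to 0.13, in 23 of 30 pairs of gene and group, so that in the other 7 the spread between libraries was no larger than counting error. The 2 libraries of a group correlated at r = 0.995 to 0.996 on the log2 scale across genes, which are not independent replicates. The 5 mature neutrophil markers were all higher in the PMN-MDSC libraries, such as Retnlg, at 1.64 to 5.14 FPKM in M-MDSCs and 287 to 562 FPKM in PMN-MDSCs. The 5 monocyte markers were divided with vehicle. Ccr2, the chemokine receptor of monocytes (mean of 142 FPKM in M-MDSCs and 38.2 FPKM in PMN-MDSCs), and Ly6c2 (1333 and 483 FPKM) were higher in M-MDSCs, while Csf1r (123 and 153 FPKM), Itgam (283 and 860 FPKM) and Cx3cr1 (0.523 and 1.35 FPKM) were higher in PMN-MDSCs. Ly6g was not analysed here.

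One pair of libraries stood apart for the primary granule genes. In vehicle-treated PMN-MDSCs, replicate 1 exceeded replicate 2 for 5 of 5 genes, by 1.49 to 2.13 times. Over 10372 genes the log2 ratio of these 2 libraries had an SD of 0.29. Only 0.482% of genes lay farther from the median log2 ratio of the pair than Mpo, and 4.11% farther than Ms4a3. In the other 5 groups the ratio of replicate 1 to replicate 2 was between 0.789 and 1.36. The summed monocyte markers were 1538 and 1533 FPKM in the 2 vehicle-treated PMN-MDSC libraries, the summed mature neutrophil markers 67501 and 93009 FPKM, and the summed megakaryocyte and platelet markers 36.5 and 19.7 FPKM. The part of these markers in the difference was not tested. The differences of the 5 genes that rest on this pair are given with and without each of its libraries, and of the named listed genes the calls that it changes are stated.

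**Figure D1:**
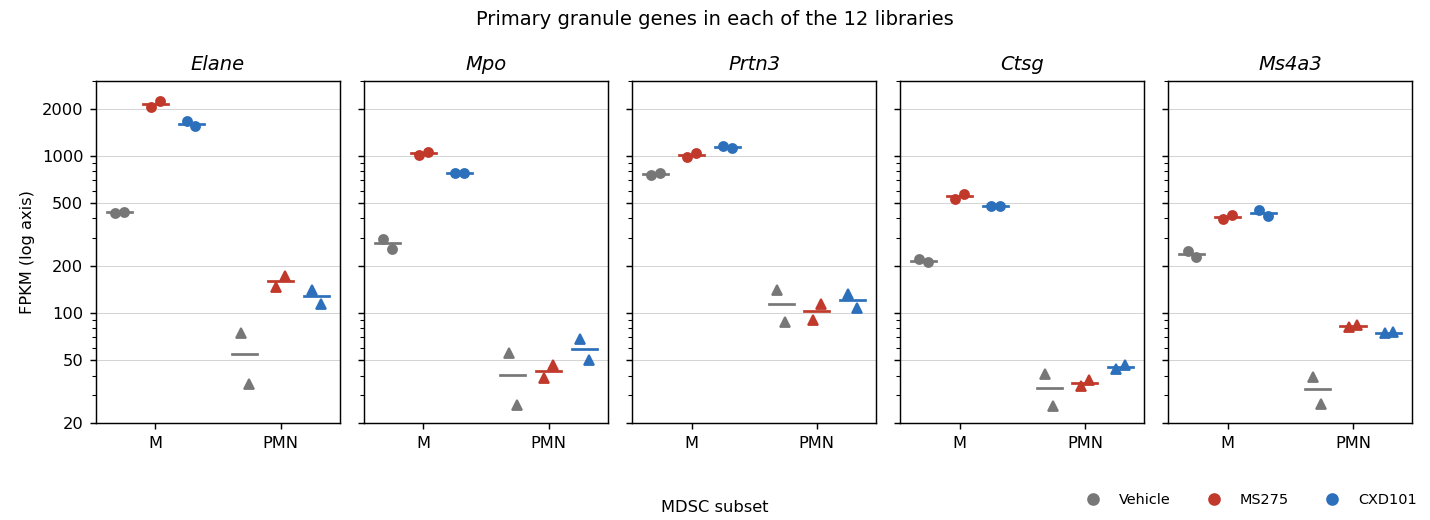
FPKM of each primary granule gene (log axis) in every library, by MDSC subset and treatment. Points are libraries (circles M-MDSCs, triangles PMN-MDSCs) and bars are the mean of 2. In M-MDSCs both libraries of each inhibitor lie above both vehicle libraries for all 5 genes, from 436 and 440 FPKM to 2064 and 2244 FPKM for Elane under MS275, and the PMN-MDSC libraries lie below the M-MDSC libraries of the same treatment.

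In M-MDSCs the 5 genes were higher in both libraries of each HDAC inhibitor than in both vehicle libraries. The share of all genes that separate in this way was not counted, here or for the comparisons below, so the separation is a description. The gain was largest for Elane and smallest for Prtn3. Elane stood at 436 and 440 FPKM with vehicle, 2064 and 2244 FPKM with MS275 and 1660 and 1551 FPKM with CXD101. The ratio of mean FPKM to vehicle was 4.92 under MS275 and 3.66 under CXD101. With MS275 Elane was the 28th and 27th most abundant of the 24346 symbols in the 2 libraries, from the 194th and 203rd place with vehicle. These are bulk libraries, in which more or fewer cells at this stage and more or less RNA per cell cannot be told apart.

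Mpo was at 298 and 257 FPKM in vehicle-treated M-MDSCs, at 1018 and 1059 FPKM with MS275 and at 777 FPKM in both libraries with CXD101. These were mean ratios of 3.74 and 2.80. The groups did not overlap, and the order was vehicle, CXD101, MS275, the same as for Elane.

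Prtn3 was the most abundant of the 5 genes in vehicle-treated M-MDSCs, at 751 and 774 FPKM. It was at 988 and 1049 FPKM with MS275 and at 1151 and 1120 FPKM with CXD101, mean ratios of 1.34 and 1.49. Proteinase 3 therefore had the highest starting level and the smallest ratio, and CXD101 stood above MS275, the other way round from Elane and Mpo.

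Ctsg was the least abundant of the 5 in vehicle-treated M-MDSCs, at 221 and 210 FPKM. It was at 534 and 574 FPKM with MS275 and 483 FPKM in both CXD101 libraries, mean ratios of 2.57 and 2.24. Ms4a3 was at 247 and 227 FPKM with vehicle, 397 and 422 FPKM with MS275 and 452 and 415 FPKM with CXD101, mean ratios of 1.73 and 1.83. For Ms4a3 the libraries of the 2 inhibitors overlapped, whereas for Ctsg both MS275 libraries lay above both CXD101 libraries.

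Differences between groups were estimated with limma on log2(FPKM + 1), so that the difference of a low gene is understated. A gene was called at an adjusted p under 0.05 (Benjamini-Hochberg over all genes tested) and a fold change above 1.5. Since the 5 genes were selected on these contrasts, their log2 differences are given with the standard error (SE) or the 95% interval as a description, with no test. All 5 passed the filter on low values in every fit. Between vehicle and MS275 in M-MDSCs, the log2 difference was 2.29 (SE 0.06) for Elane, 1.90 (SE 0.07) for Mpo, 1.36 (SE 0.06) for Ctsg, 0.79 (SE 0.07) for Ms4a3 and 0.42 (SE 0.06) for Prtn3. All but Prtn3, which lay under the fold limit, were past the limits, 4 of 5 higher, where 10.1% of the 11078 genes tested were called higher and 7.32% lower.

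With CXD101 the log2 difference from vehicle was 1.87 (SE 0.06) for Elane, 1.49 (SE 0.07) for Mpo, 1.16 (SE 0.06) for Ctsg, 0.87 (SE 0.07) for Ms4a3 and 0.57 (SE 0.06) for Prtn3. Again 4 of 5 genes were past the limits and Prtn3 was just outside, at a fitted fold of 1.49 against the limit of 1.5. Without replicate 2 of the vehicle or of the CXD101 libraries its log2 difference was 0.59, which is past the limits. Ms4a3, at a fitted fold of 1.83, was the nearest inside. Of all genes tested, 5.14% were called higher under CXD101 and 3% lower. Both comparisons share the vehicle libraries. The median difference of the 5 genes was 1.36 under MS275 and 1.16 under CXD101, beside medians of -0.06 and -0.02 over all genes tested.

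The 2 inhibitors were given at the same dose and time, and 5 genes were compared between them in M-MDSCs. MS275 exceeded CXD101 by 0.42 on the log2 scale for Elane (95% interval 0.28 to 0.57), by 0.42 for Mpo (0.25 to 0.59) and by 0.20 for Ctsg (0.06 to 0.33), with both libraries higher. Prtn3 was lower with MS275, by a log2 difference of -0.16 (-0.28 to -0.03). For Ms4a3 the difference was -0.08 (-0.24 to 0.08), an interval that includes 0. None of the 5 was past the limits in this contrast, where 3.22% of genes were called higher and 1.17% lower.

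Markers of other cells were read in the same libraries. In M-MDSCs the 5 mature neutrophil markers summed to 10581 and 11362 FPKM with vehicle and to 20826 to 24771 FPKM with the inhibitors, and 5 of 5 were present in each group. S100a8 and S100a9 supplied nearly all of this sum, at 1.78% to 4.28% of all FPKM per M-MDSC library. The 9 eosinophil markers summed to 161 and 197 FPKM with vehicle and to 383 to 424 FPKM with the inhibitors, with 5 of 9 at 1 FPKM or more with vehicle and 7 of 9 with each inhibitor. The 4 megakaryocyte and platelet markers summed to 9.51 and 9.54 FPKM and to 24.6 to 48.5 FPKM. The 9 mast cell and basophil markers summed to 9.84 and 14.0 FPKM with vehicle, 19.0 and 27.8 FPKM with MS275 and 15.1 and 20.8 FPKM with CXD101, with 3 or 4 of the 9 at 0 in each group. The 5 monocyte markers summed to 1848 and 1915 FPKM with vehicle and to 2531 to 2923 FPKM with the inhibitors, through Ly6c2, whose mean went from 1333 FPKM to 2421 FPKM with MS275 and 2076 FPKM with CXD101. Ccr2, Csf1r and Itgam were lower with the inhibitors, at means of 124 and 131, 96.0 and 103, and 257 and 259 FPKM. The 5 macrophage markers summed to 66.7 FPKM in each vehicle library, to 60.6 and 56.7 FPKM with MS275 and to 52.6 and 56.6 FPKM with CXD101. Of them 5 were at 1 FPKM or more with vehicle, 2 with MS275 and 4 with CXD101. The macrophage sum thus moved against the primary granule genes, and the sums given before it moved with them. The part of these markers in the result was not tested. Hepatocyte markers summed to at most 1.65 FPKM in M-MDSCs, lymphocyte and NK cell markers to 0.764 FPKM and erythroid markers to 0.873 FPKM.

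**Figure D2:**
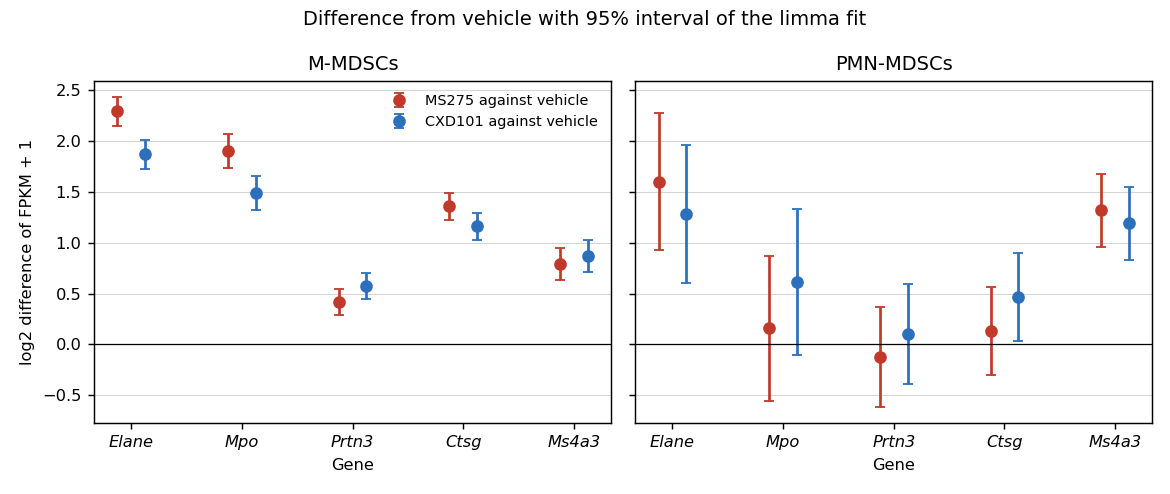
Difference from vehicle of each primary granule gene on the log2(FPKM + 1) scale, in M-MDSCs and PMN-MDSCs, for MS275 and CXD101. Points are limma estimates and bars their 95% intervals. In M-MDSCs the 5 differences run from 0.42 to 2.29 with narrow intervals, and in PMN-MDSCs only Elane and Ms4a3 lie clear of 0 under both inhibitors.

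The make-up of the primary granule signal changed with treatment. In vehicle-treated M-MDSCs Prtn3 supplied 39.5% ± 1.5 (SD, n = 2) of the summed FPKM of the 5 genes and Elane 22.7% ± 0.52. With MS275 Elane supplied 41.6% ± 0.48 and Prtn3 19.7% ± 0.10. CXD101 gave intermediate shares, 36.2% ± 0.72 for Elane and 25.6% ± 0.23 for Prtn3. The mean share of Ctsg was between 10.7% and 11.2% in the 3 M-MDSC groups. Together the 5 genes made up 0.322% to 0.336% of all FPKM in the vehicle libraries, 0.887% to 0.926% with MS275 and 0.747% to 0.758% with CXD101.

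**Figure D3:**
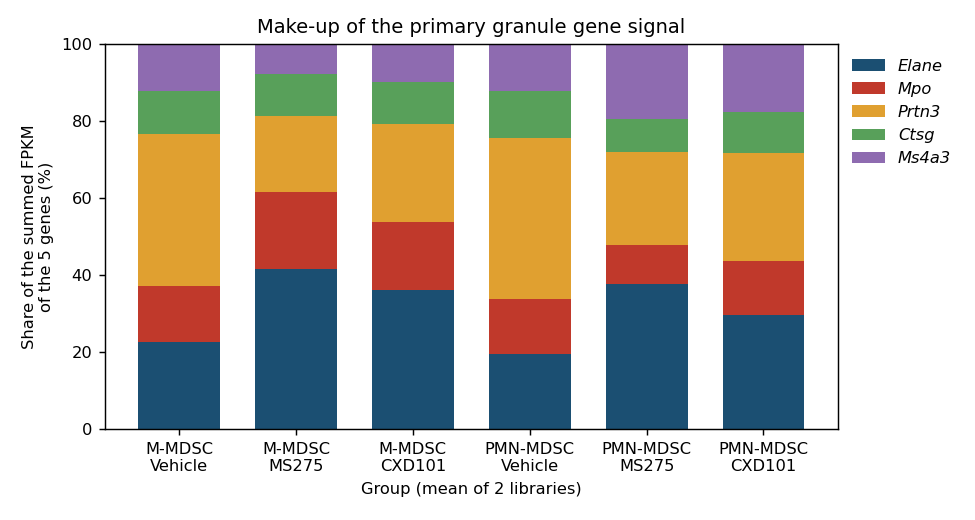
Share of each gene in the summed FPKM of the 5 primary granule genes (%), as the mean of 2 libraries per group. Prtn3 holds the largest share in both vehicle groups (39.5% and 41.8%), and Elane holds it in all 4 inhibitor groups.

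In vehicle-treated tumors the 5 genes were lower in PMN-MDSCs than in M-MDSCs. Elane was at 74.7 and 35.6 FPKM, Mpo at 55.3 and 25.9 FPKM, Prtn3 at 141 and 88.0 FPKM, Ctsg at 41.2 and 25.7 FPKM and Ms4a3 at 39.4 and 26.5 FPKM. Every PMN-MDSC library was below every M-MDSC library for each gene. The PMN-MDSC mean was 12.6% of the M-MDSC mean for Elane, 13.9% for Ms4a3, 14.6% for Mpo, 15.0% for Prtn3 and 15.5% for Ctsg, so that the 5 ratios lay close together.

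The log2 difference of PMN-MDSCs from M-MDSCs in vehicle was -3.06 (SE 0.25) for Elane, -2.83 (SE 0.27) for Mpo, -2.83 (SE 0.14) for Ms4a3, -2.76 (SE 0.18) for Prtn3 and -2.69 (SE 0.16) for Ctsg. Of 11662 genes tested, 3 had a lower difference than Elane and 9 a lower one than Ctsg, the latter count including the other primary granule genes. The 5 were selected with this contrast known, so these places are a description only. All 5 were past the limits, where 17.2% of genes were called higher in PMN-MDSCs and 16.8% lower. The median of the 5 was -2.83, beside -0.01 over all genes tested. It was -3.11 without replicate 1 of the vehicle-treated PMN-MDSCs and -2.43 without replicate 2.

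In PMN-MDSCs the 5 genes did not move as one under the inhibitors. Elane and Ms4a3 were higher in both libraries of both inhibitors. Elane was at 146 and 172 FPKM with MS275 and at 141 and 114 FPKM with CXD101, mean ratios to vehicle of 2.89 and 2.32. Ms4a3 was at 81.0 and 83.4 FPKM with MS275 and at 74.2 and 76.0 FPKM with CXD101, mean ratios of 2.49 and 2.28.

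Mpo, Prtn3 and Ctsg overlapped the vehicle range under MS275. Mpo was at 38.9 and 46.5 FPKM with MS275, between the 2 vehicle libraries, and at 68.3 and 50.2 FPKM with CXD101. Prtn3 was at 90.7 and 115 FPKM with MS275 and at 132 and 108 FPKM with CXD101, in each case within the vehicle range. Ctsg was at 34.3 and 37.3 FPKM with MS275, within the vehicle range, and at 43.9 and 46.8 FPKM with CXD101, just above its higher vehicle library.

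The log2 difference from vehicle in PMN-MDSCs was 1.60 under MS275 (95% interval 0.92 to 2.28) and 1.28 under CXD101 (0.61 to 1.96) for Elane. For Ms4a3 it was 1.32 (0.96 to 1.68) and 1.19 (0.83 to 1.55). The estimates for Mpo were 0.16 (-0.55 to 0.87) and 0.61 (-0.10 to 1.33), for Prtn3 -0.12 (-0.62 to 0.37) and 0.10 (-0.39 to 0.60), and for Ctsg 0.13 (-0.30 to 0.56) and 0.46 (0.04 to 0.89). The interval for Mpo under MS275 reaches 0.87, which leaves room for a near doubling of its level. Elane and Ms4a3, 2 of 5, were past the limits under each inhibitor, where 14.6% of the 11184 genes tested were called higher and 14.2% lower under MS275, and 11.9% higher and 9.54% lower under CXD101.

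These values depended on which vehicle library they were set against. Without replicate 1 of the vehicle-treated PMN-MDSCs, the difference under MS275 was 2.13 for Elane, 1.60 for Ms4a3, 0.69 for Mpo, 0.46 for Ctsg and 0.21 for Prtn3. Without replicate 2 it was 1.08 for Elane and 1.04 for Ms4a3, and it turned negative for Mpo (-0.37), Ctsg (-0.20) and Prtn3 (-0.46). Under CXD101 the differences were 1.81 for Elane, 1.47 for Ms4a3, 1.15 for Mpo, 0.79 for Ctsg and 0.44 for Prtn3 without replicate 1, and 0.76, 0.91, 0.08, 0.14 and -0.23 without replicate 2. Elane and Ms4a3 were thus above vehicle with either library. Without replicate 1, Mpo was also past the limits under both inhibitors and Ctsg under CXD101. Elane under CXD101 was at 1.13 and not past them without replicate 1 of the CXD101 libraries.

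In PMN-MDSCs the mature neutrophil markers summed to 67501 and 93009 FPKM with vehicle and to 231937 to 266739 FPKM with the inhibitors, and S100a8 with S100a9 made up 10.2% to 30.9% of all FPKM per library. Nearly all of the mature neutrophil sum came from S100a8 and S100a9 here too. The 9 mast cell and basophil markers summed to 71.5 and 96.0 FPKM with vehicle, 29.2 and 32.5 FPKM with MS275 and 78.5 and 77.6 FPKM with CXD101. The macrophage markers summed to 136 and 126 FPKM with vehicle and to 73.5 to 89.3 FPKM with the inhibitors. The monocyte markers summed to 1538 and 1533 FPKM with vehicle and to 2399 to 2632 FPKM with the inhibitors, and here too Ly6c2 was higher, with a mean of 483 FPKM with vehicle and of 1582 and 1523 FPKM with MS275 and CXD101, while Ccr2, Csf1r and Cx3cr1 were lower. The megakaryocyte and platelet markers summed to 36.5 and 19.7 FPKM and to 37.4 to 58.9 FPKM, and the eosinophil markers to 342 and 378 FPKM and to 384 to 493 FPKM. Their part in the results was not tested.

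MS275 and CXD101 were also compared in PMN-MDSCs, where the intervals were wide and show neither a difference nor its absence. Both MS275 libraries lay below both CXD101 libraries for Mpo and Ctsg and above them for Elane and Ms4a3, and those of Prtn3 overlapped. The log2 difference of MS275 from CXD101 was 0.32 for Elane (95% interval -0.36 to 1.0), 0.13 for Ms4a3 (-0.23 to 0.49), -0.23 for Prtn3 (-0.72 to 0.27), -0.33 for Ctsg (-0.76 to 0.10) and -0.45 for Mpo (-1.17 to 0.26). None was past the limits, where 0.465% of genes were called higher and 0.34% lower. Every interval includes 0. Those for Elane, Prtn3 and Ms4a3 also include the estimate of the same contrast in M-MDSCs, and those for Mpo and Ctsg do not.

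The response of PMN-MDSCs was then set against that of M-MDSCs. The difference of the 2 log2 responses to MS275 was -1.74 for Mpo (95% interval -2.57 to -0.91), -1.22 for Ctsg (-1.72 to -0.73), -0.69 for Elane (-1.48 to 0.09), -0.54 for Prtn3 (-1.11 to 0.03) and 0.53 for Ms4a3 (0.10 to 0.96). Mpo and Ctsg, 2 of 5, were past the limits, where 8.65% of genes were called higher and 9.48% lower. For CXD101 the differences were -0.87 for Mpo (-1.70 to -0.04), -0.70 for Ctsg (-1.19 to -0.20), -0.59 for Elane (-1.37 to 0.19), -0.47 for Prtn3 (-1.04 to 0.10) and 0.32 for Ms4a3 (-0.11 to 0.75). Only Ctsg was past the limits, 1 of 5, where 7.31% of genes were called higher and 6.59% lower, and it stayed past them in 1 of the 8 fits that left out 1 library.

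Without replicate 1 of the vehicle-treated PMN-MDSCs, the differences for MS275 shrank to -1.21 for Mpo, -0.89 for Ctsg, -0.17 for Elane and -0.20 for Prtn3, and that for Ms4a3 grew to 0.81. Without replicate 2 they were -2.28, -1.55, -1.22 and -0.87, with 0.25 for Ms4a3. For CXD101 the differences were -0.34 for Mpo, -0.37 for Ctsg, -0.06 for Elane, -0.13 for Prtn3 and 0.60 for Ms4a3 without replicate 1, and -1.40, -1.03, -1.11, -0.81 and 0.04 without replicate 2. Each of the 5 kept its direction without either library, but which were past the limits changed: Elane and Prtn3 were past them for both inhibitors and Mpo for CXD101 without replicate 2, and Ms4a3 for both without replicate 1, where Ctsg was not for CXD101. By these estimates Mpo was the gene whose subsets moved farthest apart for MS275, with all libraries and without either of these 2. For CXD101 it was so with all libraries and without replicate 2. Without replicate 1 the CXD101 differences of Ms4a3 (0.60) and Ctsg (-0.37) were larger in size than that of Mpo (-0.34). PMN-MDSCs held 14.6% of the M-MDSC level of Mpo with vehicle, 7.63% with CXD101 and 4.11% with MS275.

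**Figure D4:**
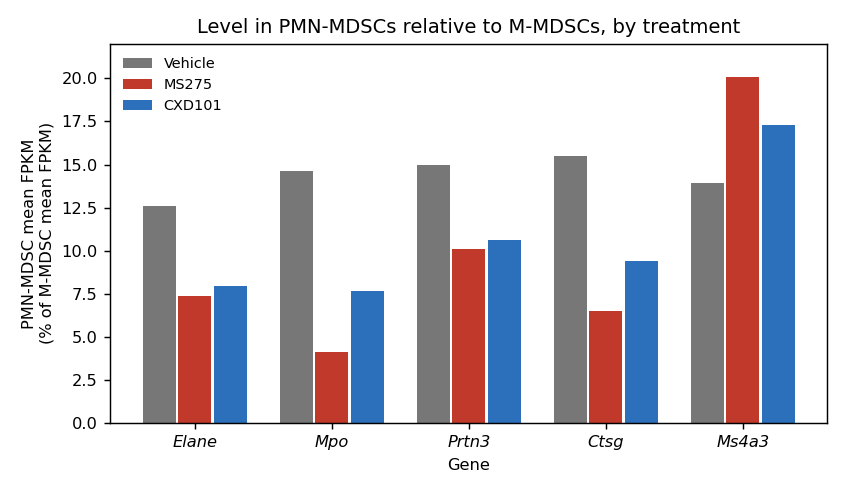
Mean FPKM in PMN-MDSCs as a percentage of the mean FPKM in M-MDSCs of the same treatment, for each primary granule gene (mean of 2 libraries over mean of 2, no error shown). With vehicle the 5 bars lie between 12.6% and 15.5%, and with MS275 they spread from 4.11% (Mpo) to 20.1% (Ms4a3).

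The same percentage for Ctsg was 15.5% with vehicle, 9.39% with CXD101 and 6.47% with MS275, and for Elane 12.6%, 7.95% and 7.39%. Prtn3 changed less, from 15.0% to 10.6% and 10.1%. Ms4a3 went the other way, from 13.9% to 17.3% with CXD101 and 20.1% with MS275. Each PMN-MDSC library was also taken against the M-MDSC mean of its treatment. For Mpo this gave 19.9% and 9.34% with vehicle and 3.74% and 4.48% with MS275, the latter below both vehicle values.

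Other genes of the granule pathway were taken from lists of 90 genes, of which 89 are in the files, and the limma calls apply to them. Other primary granule contents numbered 9, of which 8 were tested in M-MDSCs. Under MS275 4 rose and none fell: Cd63, a granule membrane tetraspanin, by 2.26 on the log2 scale (SE 0.05, adjusted p = 4.6e-07), Prss57, a further serine protease of these granules, by 1.18 (SE 0.10, adjusted p = 6.3e-05), and the lysozyme genes Lyz1 and Lyz2 by 1.13 and 1.10. The 2 lysozyme genes are near-identical copies, and reads may be split between them. Under CXD101 Cd63 (1.62) and Prss57 (0.93) rose, and Lyz1 and Lyz2, at 0.58 and 0.57, were past the limits without replicate 2 of the CXD101 libraries, and Lyz1 also without replicate 2 of the vehicle libraries. The list's median was 0.65 under MS275 and 0.38 under CXD101. Bpi, the bactericidal protein of human azurophil granules, did not pass the filter.

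In PMN-MDSCs Prss57 rose under both inhibitors, by 1.45 (SE 0.16, adjusted p = 0.00021) and 1.41 (SE 0.16, adjusted p = 0.00037), and the lysosomal enzymes Gusb and Ctsd fell under both. Lyz1 rose under MS275 by 0.62, and was not called without replicate 2 of the vehicle libraries (0.57). Lyz2 (0.58) was called under MS275 only without replicate 1 of the vehicle or of the MS275 libraries (0.61 and 0.59). The medians were -0.02 and 0.14. Prss57 was at 1.44 and 1.81 FPKM in vehicle-treated PMN-MDSCs and at 5.62 and 6.77 FPKM with MS275, so its levels were low. In vehicle it was lower in PMN-MDSCs than in M-MDSCs by a log2 difference of -1.18 (SE 0.13), while Cd63 was higher by 2.87 (SE 0.05).

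Among 7 genes of processing and packaging, Srgn was the one that rose in M-MDSCs. Srgn encodes serglycin, the proteoglycan that packs granule proteases, and it rose by 1.73 under MS275 (SE 0.09, adjusted p = 4.5e-06) and by 1.06 under CXD101 (SE 0.09, adjusted p = 0.00015). The list's median in M-MDSCs was -0.02 and -0.04. In PMN-MDSCs Ctsc, the dipeptidyl peptidase that activates the serine proteases, fell by 0.59 under MS275 and by 0.61 under CXD101 (SE 0.06 each, adjusted p = 0.00011 and 0.00015). Its level there went from 375 and 365 FPKM to 241 and 250 FPKM with MS275. Lyst, the lysosomal trafficking regulator, rose by 0.60 under MS275 in PMN-MDSCs (adjusted p = 0.0045). Both MS275 calls lay near the fold limit and were lost without replicate 1 of the vehicle libraries (Ctsc -0.57, Lyst 0.41) or of the MS275 libraries (Ctsc -0.56, Lyst 0.56).

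Of 5 protease inhibitor genes, 4 were tested. Serpinb1a, whose product inhibits elastase, proteinase 3 and cathepsin G, rose under both inhibitors in both subsets. The increase was 0.75 (SE 0.06) and 0.66 (SE 0.06) in M-MDSCs and 2.32 (SE 0.08) and 2.14 (SE 0.08) in PMN-MDSCs for MS275 and CXD101. The difference of responses between subsets was itself called, 1.57 for MS275 (adjusted p = 7.2e-06) and 1.49 for CXD101 (adjusted p = 1.8e-05). Serpinb6a fell in PMN-MDSCs under MS275, and Slpi, the secretory leukocyte inhibitor, was not called under either inhibitor. Of 8 heme synthesis genes, which supply the prosthetic group of myeloperoxidase, only Alas1, the first enzyme of the pathway, was called: it rose by 0.83 under MS275 in M-MDSCs (SE 0.05, adjusted p = 1.6e-05) and by 0.52, under the fold limit, with CXD101. None of the 8 was called under either inhibitor in PMN-MDSCs with all libraries. Urod was called higher under MS275 without replicate 1 of the MS275 libraries (0.72).

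Of 11 transcription factors that regulate granule genes, the same 4 rose in all 4 comparisons with vehicle: Myb, Gfi1, Cebpa and Cebpe. Myb, a factor of progenitors, rose by 2.13 (SE 0.08, adjusted p = 1.8e-06) under MS275 and 1.56 (SE 0.08, adjusted p = 2.5e-05) under CXD101 in M-MDSCs, and by 1.69 (SE 0.13) and 1.35 (SE 0.13) in PMN-MDSCs. Gfi1, the zinc finger repressor needed for neutrophil development, rose by 1.36 and 1.22 in M-MDSCs and by 1.97 and 1.88 in PMN-MDSCs. Cebpa, the factor that opens the granulocyte program, rose by 1.01 and 1.02 in M-MDSCs and by 0.97 and 0.82 in PMN-MDSCs.

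Cebpe, the factor of secondary granule genes, rose by 0.59 (adjusted p = 0.014) and 0.60 (adjusted p = 0.025) in M-MDSCs and by 2.05 (adjusted p = 2.5e-06) and 1.99 (adjusted p = 4.3e-06) in PMN-MDSCs. The M-MDSC calls of Cebpe were not stable: under MS275 it was called in 2 of 4 fits that left out 1 library (0.44 and 0.50 where lost), and under CXD101 in 1 of 4 (0.38 to 0.69 where lost). Its response was larger in PMN-MDSCs by 1.46 for MS275 (adjusted p = 0.00045) and by 1.39 for CXD101 (adjusted p = 0.00087). Klf4, a monocyte factor, fell in all 4 comparisons, by 1.60 and 0.60 in M-MDSCs and by 1.98 and 1.07 in PMN-MDSCs. In M-MDSCs its CXD101 call was lost without replicate 2 of the vehicle libraries (-0.58) or replicate 1 of the CXD101 libraries (-0.53). Irf8, the factor that favors monocytes over granulocytes, fell under MS275 in PMN-MDSCs by 1.03 (adjusted p = 0.0013). Under CXD101 its difference there was -0.41, not called with all libraries, and -0.67 and called without replicate 2 of the vehicle libraries (adjusted p = 0.0052). Cbfb, the partner of RUNX factors, fell under MS275 in both subsets. In M-MDSCs its call was kept in 4 of 4 fits that left out 1 library, as was a lower call of Cebpd there. In PMN-MDSCs Cbfb fell by 0.64, a call lost without replicate 2 of the MS275 libraries (-0.51). Spi1, which encodes PU.1, and Runx1 were called in none of the 4. With vehicle, Myb and Gfi1 were lower in PMN-MDSCs, by log2 differences of -1.89 (SE 0.11) and -1.68 (SE 0.10), and Cebpe was higher, by 0.85 (SE 0.14).

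**Figure D5:**
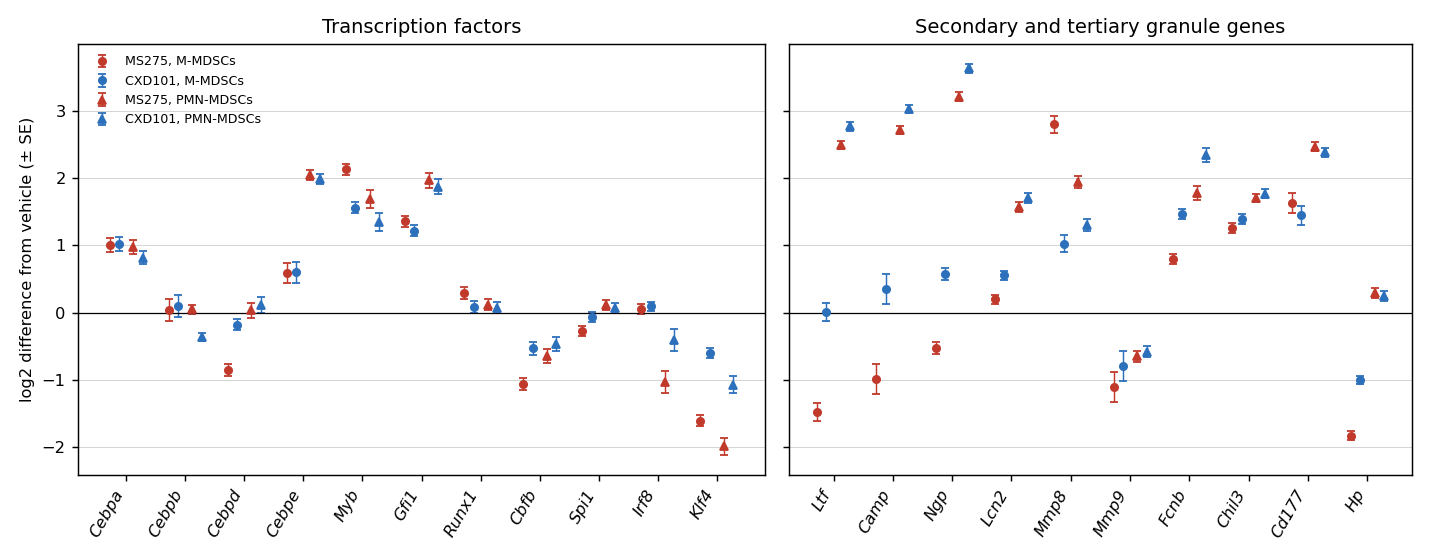
Differences from vehicle on the log2(FPKM + 1) scale (± SE) for the 11 transcription factors and the 10 secondary and tertiary granule genes, in M-MDSCs (circles) and PMN-MDSCs (triangles) under MS275 (red) and CXD101 (blue). Myb, Gfi1, Cebpa and Cebpe lie above 0 in all 4 comparisons, and Ltf, Camp and Ngp rise by 2.49 to 3.63 in PMN-MDSCs.

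Progenitor genes were tested next, since the 5 primary granule genes are transcribed at an early stage. Of 6 such genes 5 were tested in M-MDSCs, and 4 rose under each inhibitor. Cd34, a surface protein of progenitors, rose by 4.10 under MS275 (SE 0.15, adjusted p = 1.7e-06) and by 2.2 under CXD101 (SE 0.15, adjusted p = 8.7e-05), Hoxa9 by 1.92 and 1.41, Kit, the stem cell factor receptor, by 1.38 and 0.85, and Sox4 by 1.22 and 0.82. Meis1, the partner of Hoxa9, was at 1.85 and 2.02 FPKM with vehicle and at 0.699 to 0.972 FPKM with the inhibitors, so it entered the test through the vehicle libraries alone and its calls (-0.65 and -0.68) support no direction. In PMN-MDSCs 3 were tested, and Kit rose under both inhibitors and Cd34 under MS275. Cd34 was also called under CXD101 without replicate 2 of the CXD101 libraries (0.59). Hoxa9 was at 0.186 and 0.162 FPKM with vehicle and at 1.12 to 2.02 FPKM with the inhibitors. It too entered the test only through the groups where it was higher. With vehicle, Kit stood at 3.86 and 3.38 FPKM in M-MDSCs and at 16.2 and 16.6 FPKM in PMN-MDSCs. Limma called Kit and Cd34 above their M-MDSC level, opposite in direction to the 5 primary granule genes. The log2 difference of Cd34 was 0.78, and 0.53 without replicate 2 of the vehicle-treated M-MDSCs. Meis1 (-0.76) and Hoxa9 (-0.69), both under 1 FPKM in vehicle-treated PMN-MDSCs, were called lower, and Sox4 (-0.51) was not called.

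Of 10 cell cycle genes, none rose in M-MDSCs. Ccnb1, Ccna2 and Birc5, which act in mitosis, fell under MS275 by 0.95, 0.89 and 0.60, and none was called under CXD101. The Birc5 call was lost without replicate 1 of the MS275 libraries (-0.57). In PMN-MDSCs Ccnb1 fell under MS275 by 1.07 (adjusted p = 8.5e-05), and under CXD101 it was called without replicate 2 of the vehicle libraries (-0.66) or replicate 1 of the CXD101 libraries (-0.64). All 10 were lower in PMN-MDSCs than in M-MDSCs in vehicle, with a median log2 difference of -1.45. The part of cell division in the primary granule result was not tested.

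Secondary and tertiary granules are made after the primary ones, and their 10 genes were the closest comparison. In PMN-MDSCs 8 of 10 rose under each inhibitor. Ngp rose by 3.21 under MS275 (SE 0.07, adjusted p = 4.2e-07) and 3.63 under CXD101 (SE 0.07, adjusted p = 2.3e-07), Camp, the cathelicidin, by 2.71 and 3.02, and Ltf, lactoferrin, by 2.49 and 2.77. The list's medians were 1.86 and 2.06, where those of the 5 primary granule genes were 0.16 and 0.61. Without either of the vehicle-treated PMN-MDSC libraries, 8 of 10 still rose. Mmp9, the gelatinase of tertiary granules, fell under MS275 by 0.65, and it was not called without replicate 2 of the vehicle libraries. Under CXD101, where it was not called (-0.58), it was called lower without replicate 1 of the vehicle libraries or replicate 2 of the CXD101 libraries (-0.69 and -0.61).

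In M-MDSCs the later granule genes were divided. Under MS275 Mmp8, Cd177, Chil3 and Fcnb rose, by 2.80, 1.63, 1.26 and 0.80, and Hp, Ltf, Mmp9 and Camp fell, by 1.82, 1.47, 1.11 and 0.98. Under CXD101 the same 4 rose, and Hp and Mmp9 fell, the latter by 0.79 and in only 1 of 4 fits that left out 1 library. Ngp was called lower under MS275 without vehicle replicate 1 or MS275 replicate 2 (-0.63 and -0.61), and higher under CXD101 without vehicle replicate 2 or CXD101 replicate 1 (0.68 and 0.65), as was Lcn2 without vehicle replicate 2 or CXD101 replicate 2 (0.62 each). The medians were -0.16 and 0.57, beside 1.36 and 1.16 for the primary granule genes. MS275 was below CXD101 for 5 of 10 in M-MDSCs (Ltf, Camp, Ngp, Hp and Fcnb) and above it for Mmp8. The response of PMN-MDSCs exceeded that of M-MDSCs for 7 of 10 genes with each inhibitor, for Ltf by 3.97 (adjusted p = 6e-07) and 2.76 (adjusted p = 1.2e-05). Mmp8 went the other way for MS275, with a response called smaller in PMN-MDSCs, and no gene did so for CXD101. For MS275 the call of Cd177 (0.84) was lost without replicate 2 of the vehicle-treated M-MDSCs (0.58).

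Most relatives of the 5 genes were at low levels. Of 13 paralog proteases and peroxidases (granzymes, mast cell proteases, tryptases, eosinophil peroxidase and lactoperoxidase), 3 were tested. Epx, eosinophil peroxidase and a relative of Mpo, rose in M-MDSCs by 2.75 under MS275 (SE 0.20, adjusted p = 2.7e-05) and by 2.32 under CXD101 (SE 0.20, adjusted p = 0.00021), and it fell in PMN-MDSCs by 1.02 and 0.94. Its FPKM in M-MDSCs was 2.68 and 1.28 with vehicle and 18.4 and 18.6 with MS275, far below that of Mpo. The basophil and mast cell proteases Mcpt8 and Prss34 fell in PMN-MDSCs under MS275, and Prss34 rose in M-MDSCs by 0.85 (adjusted p = 0.0094), a call lost without replicate 1 of the vehicle libraries (0.63) or replicate 2 of the MS275 libraries (0.57). Mcpt8 was called higher in M-MDSCs under MS275 only without vehicle replicate 2 or MS275 replicate 1 (1.09 and 1.14). Of 11 other Ms4a genes 5 were tested in M-MDSCs. Ms4a7 rose under both inhibitors there, by 1.03 (adjusted p = 0.0012) and 0.80 (adjusted p = 0.0096), the second of which was lost without vehicle replicate 1 or CXD101 replicate 2 (0.71 and 0.59). Ms4a8a fell under MS275, and under CXD101 it was called lower without vehicle replicate 1 (-0.91). Ms4a6b, at 0.833 and 0.669 FPKM with vehicle, was called higher under MS275 (0.60), but it passed the filter only through inhibitor libraries and lost the call in 3 of 4 fits without 1 library. In PMN-MDSCs Ms4a6d fell under both inhibitors. Ms4a8a was called lower under both, by 1.57 and 0.77. Its MS275 libraries were at 0.446 and 0 FPKM, so it passed the filter through the other groups, and its CXD101 call was lost without vehicle replicate 1 or CXD101 replicate 2 (-0.63 and -0.62). Ms4a7 was called higher there under MS275 (0.60), in 1 of 4 fits without 1 library.

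Neighbors were taken by RefSeq position as the 3 protein-coding genes on each side, 24 in all. The 5 genes themselves and genes not matched to the files by their RefSeq symbol, such as Plppr3 beside Prtn3 and Tspoap1 beside Mpo, were passed over. Of the 10 tested in M-MDSCs, Epx, Oosp1 and Palm were called higher under MS275, Epx and Oosp1 under CXD101, and none lower. Their medians were 0.45 and 0.30. Oosp1 was at 0.709 and 0.296 FPKM with vehicle and passed the filter only through the inhibitor libraries, and the call of Palm was lost without replicate 1 of the vehicle or of the MS275 libraries (0.56 each). Of the 11 tested in PMN-MDSCs, R3hdm4 and Rnf43 were called higher under both inhibitors, Ms4a6d, Mcpt8, Epx and Ptbp1 lower under MS275, and Epx and Ms4a6d lower under CXD101. Rnf43 was at 0.0547 and 0.197 FPKM with vehicle and passed the filter only through the inhibitor libraries, and the call of Ptbp1 (-0.62) was lost without replicate 1 of the vehicle or of the MS275 libraries (-0.53 and -0.50). R3hdm4, which lies 21836 bp from Elane, rose in PMN-MDSCs by 1.77 (adjusted p = 1.4e-06) and 1.67 (adjusted p = 2.5e-06). Med16, 6490 bp from Elane, was called in none of the comparisons with vehicle.

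Between the inhibitors, 11 of the 71 list genes tested in M-MDSCs were called, 4 higher and 7 lower with MS275. Cd34 was higher by 1.90 (SE 0.15, adjusted p = 0.00052) and Srgn by 0.67 (adjusted p = 0.0031, not called at 0.56 without replicate 2 of the CXD101 libraries), and Klf4 was lower by a log2 difference of -1.0 (SE 0.08, adjusted p = 0.00044). Myb differed by 0.57 with an adjusted p of 0.0053 and a fold change under the limit, which it passed without MS275 replicate 1 or CXD101 replicate 1 (0.61 and 0.64). In PMN-MDSCs 6 of 69 were called (Cd34 and Mmp8 higher, Klf4, Ms4a6d, Mcpt8 and Prss34 lower), a count that fell to 0 without a filter on low values and to between 0 and 2 when any one PMN-MDSC library was left out.

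The genes whose pattern over the 12 libraries was most like the mean of the 5 were Igfbp4 (Pearson r = 0.995), Cdca7l (r = 0.993) and Lgals3bp (r = 0.993). The 12 libraries fall into the 2 subsets, and the part of the subsets in this likeness was not computed. After centring each subset on its own mean, the closest genes were Rgcc (r = 0.966), Muc13 (r = 0.948) and Bahcc1 (r = 0.945), and Bcat2 and Lgals3bp were among the first 10 both ways. Igfbp4, an insulin-like growth factor binding protein, ranged from 6.82 to 112 FPKM and Rgcc, a regulator of the cell cycle, from 19.8 to 63.9 FPKM. These are descriptions over libraries that share a subset or a treatment.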

How the data were processed

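FPKM values per gene were deposited by the authors for each library, made per the labels from single-end reads of 101 bases on mm10 with TopHat2 2.1.1, Bowtie2 2.2.8, SAMtools 0.1.18 and Cuffdiff 2.2.1. Gene annotation, strand use and read totals are not given in the sources used here. Groups followed the labels. Values were tested as log2(FPKM + 1) with limma 3.58.1 (R 4.3.3, trend on intensity), and genes were tested where 2 or more libraries of the fit reached an FPKM of 1. The 6 libraries of a subset were fitted together, and all 12 for comparisons between subsets. Each fit used a spread per gene shared by all its groups, also where the vehicle-treated PMN-MDSC pair differed more than the others. p-values were adjusted by Benjamini-Hochberg over all genes and, with a fold change above 1.5, called under 0.05. FPKM carries no raw counts, so no count model was used. The 5 genes and the lists, whose genes are named where called or needed for their role, were chosen with earlier results of these data known. With 2 libraries per group, p-values measure the spread between these libraries, which may be partly technical. Scripts used Python 3.11.15. Alternatives changed the pseudocount, filter, scaling, model, block, fold limit and libraries.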

Additional observations from a re-analysis of the deposited data

Results flagged for a closer look

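Several listed genes moved in opposite called directions in the subsets, and the difference of the responses was itself called by limma (adjusted over all genes). Under MS275, Ltf fell in M-MDSCs (-1.47) and rose in PMN-MDSCs (2.49), a log2 difference of responses of 3.97 (adjusted p = 5.98e-07), with 2 of 2 libraries in each direction. Camp went from -0.98 to 2.71, a difference of 3.70 (adjusted p = 1.5e-05). Prss34, a basophil and mast cell protease, went from 0.85 to -1.31, a difference of -2.15 (adjusted p = 0.000337), though its M-MDSC call was lost in 2 of 4 fits that left out 1 library. Epx, eosinophil peroxidase, rose in M-MDSCs and fell in PMN-MDSCs under both inhibitors, with differences of -3.77 for MS275 (adjusted p = 3.12e-05) and -3.27 for CXD101 (adjusted p = 0.000119). None of the 5 primary granule genes was past the limits in opposite directions in the subsets.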

How the results depend on the processing

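The median log2 difference of the 5 primary granule genes kept its sign under each other pseudocount, filter, scaling, model and block tried. In M-MDSCs it went from 1.36 to 1.45 with median-of-ratios scaling and to 1.5 with quantile normalization under MS275, from 1.16 to 1.22 with quantile normalization under CXD101, and from 0.20 to 0.25 and 0.28 with these scalings for MS275 against CXD101. No scaling moved the median of all genes by over 0.1. Leaving out 1 library gave medians of -0.20 to 0.69 for MS275 and 0.14 to 1.15 for CXD101 in PMN-MDSCs, -0.39 to -0.06 for MS275 against CXD101 there, -3.11 to -2.43 for PMN-MDSCs against M-MDSCs in vehicle, and -1.22 to -0.20 and -1.03 to -0.13 for the differences of response to MS275 and CXD101. All the ends of these ranges but those of MS275 against CXD101 came from the vehicle-treated PMN-MDSC libraries. Where a group was left with 1 library, that library was assumed to vary like the other groups.

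With the fold limit raised to 2, fewer list genes were called by construction: 23 in place of 35 and 12 in place of 22 in M-MDSCs for MS275 and CXD101, 5 in place of 11 between them, 15 in place of 23 for CXD101 in PMN-MDSCs, 3 in place of 6 between the inhibitors there, and 17 in place of 27 and 10 in place of 19 for the differences of response. The 6 genes called between the inhibitors in PMN-MDSCs were 0 without a filter on low FPKM, 2 without the intensity trend and 0 to 2 without any one library; the cause was not tested. The replicate numbers give no shared animal or day, and the deviations of same-numbered libraries correlated at -0.126 to 0.179 across groups. With the replicate number as a block, the medians were 1.36 and 1.16 in M-MDSCs and 0.16 and 0.61 in PMN-MDSCs for MS275 and CXD101, and 36, 24, 34 and 23 list genes were called. The 2 libraries per group limit every interval, and depth limits only the low genes, such as Prss57.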
